A study of Mus musculus with 82 samples.

Results

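The data described here are the incubation of mouse aortic vascular smooth muscle cells (aVSMC) with angiotensin II (AngII) for 48 h, in the absence and in the presence of epidermal growth factor (EGF). The members were chosen by condition and not by any measured value. They are the 5 AngII and 5 EGF+AngII libraries of 1 of the 2 batches at 48 h, together with the 5 control and 5 EGF libraries of the same culture sets, 20 of the 82 libraries of the series. A culture set is used here for the 4 cultures that share a replicate number (1, 2, 4, 5 or 6). AngII was compared with control and EGF+AngII with EGF inside each set, which gives 10 pairs, 10 libraries with AngII against 10 without. All cultures were primary aVSMC of C57BL/6 mice, used after growth in a medium with serum, supplements and EGF, and were kept for 24 h without serum or supplements before the incubation. AngII was given at 10 nM and EGF at 10 µg/L, and the control received neither. Poly(A) RNA was sequenced and the counts per gene are reported as FPM, which are fragments relative to the scaled library size. FPM are not scaled to transcript length. The labels give 3 mouse numbers for the 5 sets, with sets 1, 2 and 5 under mouse 7, set 4 under mouse 10 and set 6 under mouse 11, whereas the methods of the study state a different mouse for each replicate. With either reading the p-values measure the spread between these cultures.

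AngII is the effector peptide of the renin-angiotensin system. It acts in vascular smooth muscle mainly through the AngII type 1 receptor (AT1R), which in the mouse is encoded by Agtr1a and Agtr1b. This G protein-coupled receptor raises cytosolic calcium through Gq and phospholipase C, activates RhoA through G12 and G13, is desensitised by receptor kinases and β-arrestins, and is known to transactivate the EGF receptor (EGFR) through shedding of EGFR ligands. Contraction, hypertrophy, matrix deposition and inflammation are the responses of the vessel wall with which it is usually associated. The comparison with and without EGF asks whether activation of EGFR alters the transcriptome response to AngII.

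The libraries hold 20338025 to 33916114 counts (median 28571488.5), and 31379 of 55401 listed genes have a count in at least 1 of them. Every one of the 7075 genes on chromosomes 9, X and Y or in the mitochondrial genome has a value of 0, which includes the smooth muscle markers Tagln and Cnn1 as well as Agtr2 and Atp6ap2, so these genes could not be assessed. The cultures of a set resembled each other. After subtraction of the group means, 27 of 30 pairs of libraries within a set had a correlation over 0.1 across genes, with a median of 0.83. The 3 exceptions all involve the control of set 4. Its correlation with the other cultures of set 4 was −0.294 to −0.287, while that with AngII, EGF and EGF+AngII of set 2 was 0.85 to 0.879. The control of set 2 lies between sets, with correlations of 0.523 to 0.545 with its own set and of 0.305 to 0.582 with set 1. Results are therefore given with and without the AngII-control pair of set 4. Of the sets under mouse 7, sets 1 and 2 were positively correlated in each pair of their libraries (0.166 to 0.582), whereas set 5 was negatively correlated with set 1 (−0.481 to −0.0724) and with set 2 (−0.432 to −0.12).

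**Figure D1:**
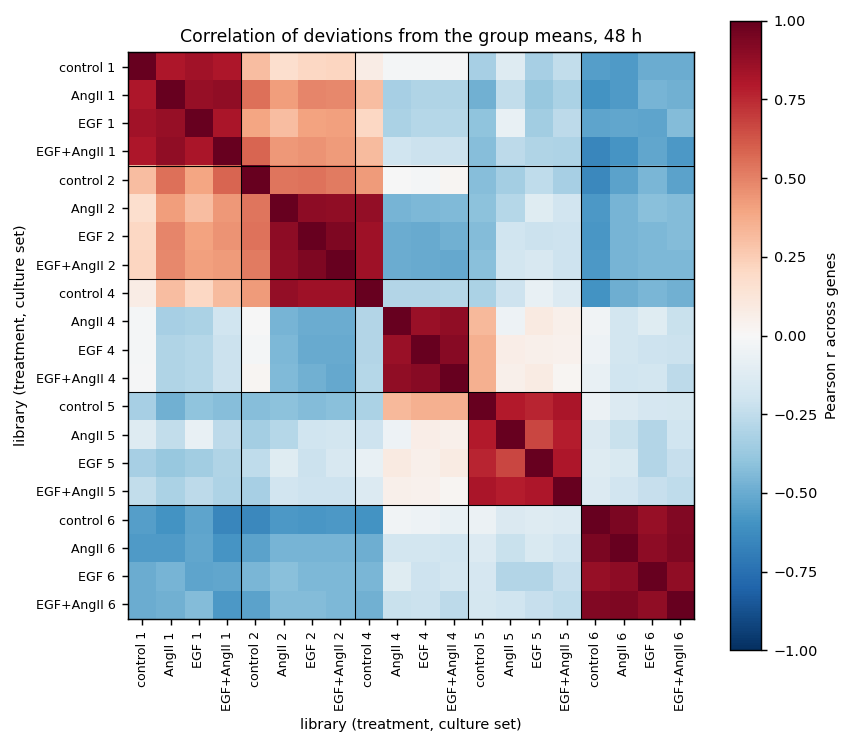
Pearson correlation across genes between the deviations of the 20 libraries from the means of their groups, ordered by culture set, with lines between sets and colour from −1 (blue) to 1 (red). The blocks along the diagonal are the culture sets, and the control of set 4 is red with the AngII, EGF and EGF+AngII libraries of set 2 (0.85 to 0.879) and blue with its own set.

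The smooth muscle identity of the cultures was checked against marker genes and differed by set more than by incubation. Of 8 smooth muscle markers 6 had counts. Their summed level was 6576 to 7662 FPM in the 4 libraries of set 5, 1648 to 3398 FPM in sets 1, 2 and 4, and 397 to 738 FPM in set 6. Myh11, the smooth muscle myosin heavy chain, was at 112 to 272 FPM in set 5 and at 0.309 to 0.851 FPM in set 6. Acta2, smooth muscle α-actin, was at 4971 to 5752 FPM in set 5 and at 294 to 564 FPM in set 6. Set 6 is thus low for both defining markers.

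Markers of other cell types were present. Of 8 endothelial markers 7 had counts, and Cdh5 was listed at 0. Genes listed at 0 in every library are given no value here, and this was not read as absence of expression. The sum of the 7 was 2629 to 2973 FPM in set 1 and 2415 to 2842 FPM in set 2 apart from its control. It was 377 to 417 FPM in set 4 apart from its control, 472 to 535 FPM in set 5 and 22.9 to 26.0 FPM in set 6. Pecam1, the endothelial adhesion molecule CD31, was at 894 to 1004 FPM in set 1 and at 2.87 to 4.30 FPM in set 6. The control of set 4 had 2619 FPM of endothelial markers, against 377 to 417 FPM in the other cultures labelled as set 4. All 10 macrophage and leukocyte markers had counts, with sums of 653 to 1009 FPM in set 1 and 45.9 to 172.3 FPM in the other sets apart from the control of set 2. That control had 283 FPM of these markers and 49.4 FPM of Schwann cell markers, against 49.55 to 51.55 FPM and 11.1 to 12.7 FPM in the other cultures of set 2. The 4 mesothelial markers summed to 432 to 681 FPM in set 6, where Krt19, a keratin of epithelia and mesothelium, was at 317 to 589 FPM, and to 4.43 to 16.9 FPM in the other sets. Of 9 adventitial fibroblast markers 7 had counts (Clec3b and Dpep1 at 0), with sums of 2714 to 3326 FPM in set 4 apart from its control and 772 to 1046 FPM elsewhere. These markers did not move together. Ly6a reached 2331 FPM in set 4, whereas Cd34 was at 56.5 to 65.4 FPM in set 4 apart from its control (483.5 FPM). Cd34 was at 295 to 441 FPM in set 1 and at 408 to 641 FPM in set 2. The adipocyte markers summed to 4.17 to 241 FPM and the Schwann cell markers to 7.87 to 66.0 FPM. In RNA of whole cultures, fewer cells of a type and less RNA per cell cannot be told apart.

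**Figure D2:**
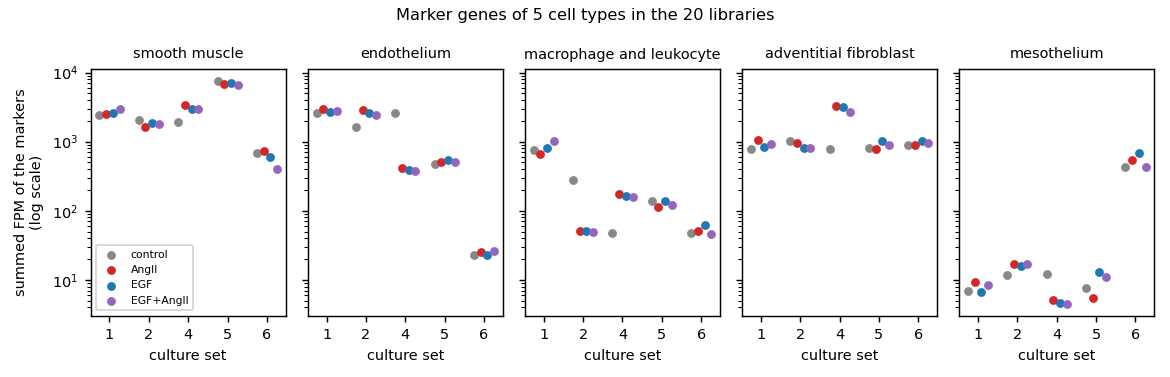
Summed FPM (log axis) of the marker genes of 5 cell types in each of the 20 libraries, by culture set, with 1 point per library coloured by incubation. The level follows the culture set (endothelial markers at 2629 to 2973 FPM in set 1 and at 22.9 to 26.0 FPM in set 6), while libraries with and without AngII of the same set lie close together except for the controls of sets 2 and 4.

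With AngII against without, the summed smooth muscle markers ranged over 397 to 6869 FPM against 603 to 7662 FPM, and the endothelial markers over 25.0 to 2973 FPM against 22.9 to 2688 FPM, so the ranges overlapped. The endothelial sum of control and AngII was 2629 and 2973 FPM in set 1, 472 and 507 FPM in set 5 and 23.0 and 25.0 FPM in set 6, but 1647 and 2842 FPM in set 2 and 2619 and 417 FPM in set 4. The part of these markers in the results below was not tested. The AngII-control pairs of sets 2 and 4 were left out in an alternative, which also gave 0 DEG.

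The receptors and the angiotensin-handling proteins did not pass the test. Agtr1a (GRCm38, chromosome 13: 30336441-30382867, plus strand) was low in every library. In sets 1, 2, 4, 5 and 6 it was at 0.732, 0.327, 0.0685, 1.75 and 1.23 FPM in the control and at 0.511, 0.0691, 1.28, 2.2 and 2.65 FPM with AngII. With EGF it was at 0.848, 0.161, 2.27, 1.38 and 1.08 FPM and with EGF+AngII at 0.762, 0.143, 4.27, 1.91 and 1.01 FPM. A count of 3 corresponds to 0.0885 to 0.148 FPM in these libraries, so the values of the control of set 4 and of AngII in set 2 rest on fewer than 3 counts. The groups overlapped and 5 of 10 pairs were higher with AngII. The log2-fold change of Agtr1a was 0.42 ± 0.36 (SE), with a 95% interval from −0.36 to 1.20 (edgeR FDR = 1.00), and 0.21 without the pair of set 4. Agtr1b did not exceed 1.62 FPM in any library and was listed at 0 in AngII and EGF of set 6 (log2-fold change 0.01 ± 0.39).

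Egfr, the receptor of EGF, was at 27.2 to 195 FPM with AngII and at 28.7 to 179.3 FPM without (log2-fold change 0.16 ± 0.15, higher in 6 of 10 pairs). Without the pair of set 4 the log2-fold change of Egfr was 0.03. Tbxa2r, the thromboxane receptor, was at 11.3 to 74.5 FPM with AngII and at 11.1 to 81.8 FPM without (0.12 ± 0.22). Egfr was highest in set 6 for each of the 4 incubations. In the AngII-control pair of set 4 Tbxa2r was at 12.6 FPM in the control and at 67.5 FPM with AngII, and without this pair its log2-fold change was −0.10.

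Ace, the angiotensin-converting enzyme that forms AngII, had no DEG call either. In sets 1, 2, 4, 5 and 6 it was at 269.9, 390.1, 269, 162.1 and 37.7 FPM with AngII and at 166.3, 306, 294, 187.9 and 58.9 FPM with EGF+AngII. It was at 167.6, 274, 235, 104 and 71.0 FPM with EGF, and in the control at 181.6, 192 and 255 FPM in sets 1, 2 and 4, at 47.5 FPM in set 6 and 0.11 lower than with AngII on the log2 scale in set 5. AngII was above its partner in 7 of 10 pairs, with exceptions in both pairs of set 6 and in the EGF pair of set 1. The log2-fold change of Ace was 0.25 ± 0.13 (interval −0.02 to 0.53, edgeR FDR = 1.00), and 0.27 without the pair of set 4, where its unadjusted p was under 0.05. After 24 h in other cultures the log2-fold change of Ace was −0.17, the opposite sign, also with an unadjusted edgeR p under 0.05. Nr3c2, the mineralocorticoid receptor, was lower in 7 of 10 pairs (−0.42 ± 0.21, and −0.26 without the pair of set 4) and reached 2.897 FPM at most. Agtrap, which binds and internalises AT1R, was at 34.5 to 89.1 FPM with and 35.0 to 88.4 FPM without AngII (0.12 ± 0.078, and 0.07 without that pair). Of the 16 genes of this list 10 were tested, 4 are listed at 0 (among them Agt, the AngII precursor, and the X-linked Agtr2 and Atp6ap2), and none of the 10 had an unadjusted p under 0.05. The median log2-fold change of the list was 0.11, against 0.00 for all genes tested. It was 0.05 without the pair of set 4. Then 1 of the 10, Ace, was higher at an unadjusted p under 0.05, against 1.08% of all genes.

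**Figure D3:**
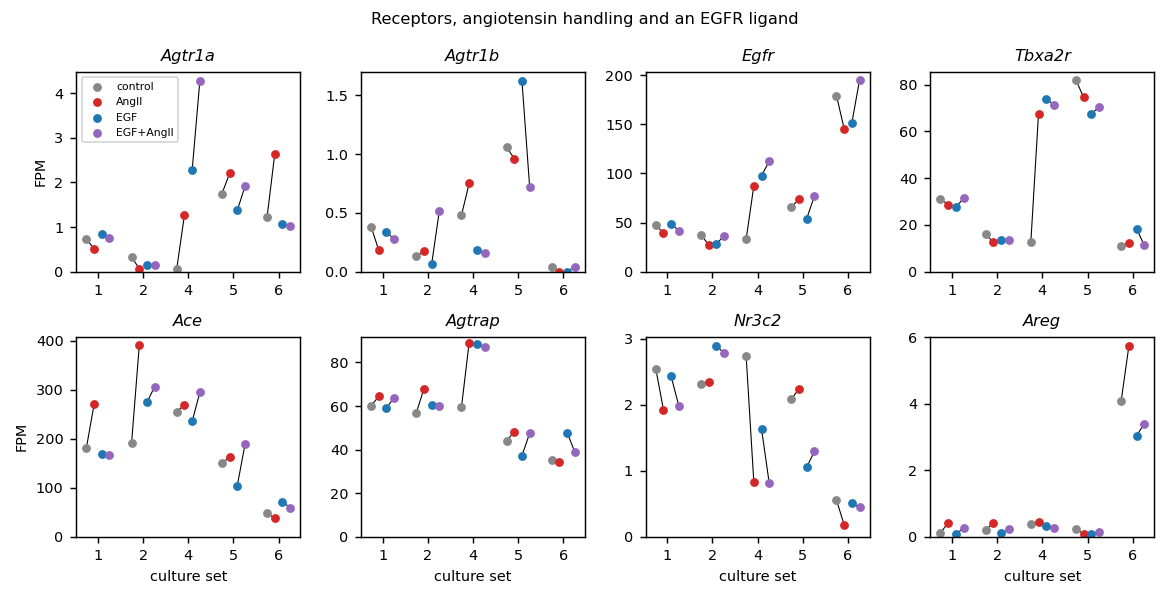
FPM of Agtr1a, Agtr1b, Egfr, Tbxa2r, Ace, Agtrap, Nr3c2 and Areg in the 20 libraries by culture set, each on its own linear axis from 0, with lines joining control to AngII and EGF to EGF+AngII. Agtr1a stays at or under 4.27 FPM, the lines of a gene run in both directions, and the steep lines of set 4 start from its control.

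Across all genes no DEG was found for the main effect of AngII. A DEG was defined as a gene with a false discovery rate (FDR) under 0.05 in edgeR as well as DESeq2 whose mean reached 5 FPM in 1 group or more. Of 15406 genes tested, 0 (0%) were DEG, and edgeR and DESeq2 alone also called 0. At an unadjusted p under 0.05, edgeR had 80 genes higher (0.519%) and 72 lower (0.467%), DESeq2 141 genes in all, and 122 were shared by both tools. This fit has no term for a difference between the backgrounds without and with EGF. Any such difference therefore counts as spread in its p-values and SE, which makes them larger. Without the AngII-control pair of set 4, 15686 genes were tested, 0 were DEG, and 1.08% of the genes were higher and 1.02% lower at an unadjusted p under 0.05, in all 329 genes in edgeR and 306 in DESeq2. The exact sign-flip test over 5 culture sets cannot give a p below 0.0625 for any single gene.

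The intervals bound the size that remains possible for the main effect, which is the average over the backgrounds without and with EGF. They do not bound the effect in each background, for which fewer intervals were inside these limits, as given further below. For the 10558 genes with at least 5 FPM in 1 group, the median SE of the log2-fold change was 0.096 and the median size of the log2-fold change 0.050, and 95% of the genes were within 0.20. The 95% interval was inside a 2-fold change in either direction for 10379 of these genes (98.3%) and inside 1.5-fold for 9662 (91.5%). No gene of this level differed by more than 2-fold on average and 7 differed by more than 1.5-fold. Without the pair of set 4 the intervals were inside 2-fold for 99.6% and inside 1.5-fold for 97.0% of 10595 genes.

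The 10 pairs did not share a direction. The log2 differences of pairs from different sets had a median correlation of −0.128 across genes (40 comparisons, −0.606 to 0.608, 16 above 0), and of −0.144 without the AngII-control pair of set 4. In at least 9 of 10 pairs, 42 of 10558 genes (0.398%) were higher and 40 (0.379%) lower. Single pairs did differ: the AngII-control pair of set 4 had 1666 genes over 2-fold (15.8% of 10558), that of set 2 had 381, and those of sets 1, 5 and 6 had 30, 14 and 16. The EGF+AngII-EGF pairs of sets 1, 2, 4, 5 and 6 differed over 2-fold in 0.0568%, 0.0947%, 0.426%, 1.48% and 4.35% of the genes. Of the variance of log2 FPM of a gene, the culture set held a median of 70.6%, AngII 0.505%, EGF 0.559% and their interaction 2.14%. The rest held a median of 22.7% on 12 degrees of freedom, against 1 for each of AngII, EGF and the interaction.

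For orientation, the same fit was applied to other libraries of the series. U46619, a thromboxane receptor agonist, after 48 h in the other batch with the same number of pairs, gave 4315 DEG of 14634 genes tested (29.5%), with 2333 higher and 1982 lower, and its pairs of different sets had a median correlation of 0.552 (all 40 comparisons above 0). These were different cultures, so agent and batch cannot be told apart. AngII after 24 h with 12 pairs gave 0 DEG in edgeR and DESeq2 and 274 of 14089 genes (1.94%) with an unadjusted p under 0.05 (263 in DESeq2). The mean log2 differences after 48 h and after 24 h had a correlation of 0.004 across genes. In the 20 libraries described here the main effect of EGF also gave 0 DEG in both tools, with 234 genes under an unadjusted p of 0.05 in edgeR and 240 in DESeq2.

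The genes with the lowest p at 48 h that went the same way in at least 9 of 10 pairs were small in effect. There were 12 per direction, with log2-fold changes from 0.09 to 0.64 in size and a highest group mean of 5.67 to 129 FPM. They were selected by this contrast, so their values are a description, and 8 of the higher and 9 of the lower genes had an unadjusted edgeR p under 0.05, with a lowest FDR of 1 over all genes. Without the pair of set 4 all 24 kept their direction, which their selection on these same pairs made likely. After 24 h in other cultures 7 of 12 and 6 of 12 had the same direction and 0 had an unadjusted p under 0.05.

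Among the 12 higher genes only Mboat1 was higher in all 10 pairs. It encodes a lysophospholipid acyltransferase and lies on chromosome 13 (GRCm38 30136489-30246717, plus strand). In sets 1, 2, 4, 5 and 6 it was at 2.34, 2.29, 2.67, 9.99 and 39.95 FPM in the control and at 3.04, 3.62, 6.46, 10.7 and 41.6 FPM with AngII. With EGF it was at 2.6, 2.35, 3.68, 10.5 and 33.8 FPM and with EGF+AngII at 3.26, 3.1, 4.14, 11.0 and 39.5 FPM. The groups overlapped, since set 6 was far above sets 1, 2 and 4 in each of them, and the difference within sets 5 and 6 was at most 0.22 on the log2 scale. The log2-fold change of Mboat1 was 0.35 ± 0.12 and 0.24 without the pair of set 4.

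The other genes of this direction were higher in 9 of 10 pairs. Dgka, the diacylglycerol kinase α that removes the second messenger diacylglycerol, had a log2-fold change of 0.22 ± 0.077 and was at 18.6 to 83.3 FPM with and 12.5 to 73.9 FPM without AngII. Its pair differences were −0.01 to 0.38 without EGF and 0.12 to 0.76 with EGF. Cbx2, a subunit of Polycomb repressive complex 1, had 0.20 ± 0.066 and Glul, glutamine synthetase, 0.12 ± 0.049. Scin, the actin-severing protein scinderin, had the largest value of the 24 genes in size (0.64 ± 0.28), but was at most 1.15 FPM in all libraries of sets 1, 2, 4 and 5 and at 36.3 to 61.1 FPM in set 6. The remaining ones were Adam22, Tmem198b, Vti1a, Slc30a6, Nfatc2ip, Fbxl16 and Btd, with log2-fold changes of 0.13 to 0.27.

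Among the lower genes Ankrd1, Hexdc and Cited2 were lower in all 10 pairs. Ankrd1 encodes a cardiac and vascular ankyrin repeat protein and is a target of the YAP and TEAD transcriptional regulators (chromosome 19: 36111961-36120099, minus strand). In sets 1, 2, 4, 5 and 6 Ankrd1 was at 99.99, 75.8, 62.9, 151.9 and 2.34 FPM in the control and at 96.0, 47.2, 62.8, 136 and 2.34 FPM with AngII. With EGF it was at 123, 60.4, 45.3, 185.1 and 2.06 FPM and with EGF+AngII at 97.1, 50.4, 43.3, 159.1 and 1.15 FPM. The pairs of sets 4 and 6 without EGF were nearly equal, and the groups overlapped. The log2-fold change of Ankrd1 was −0.24 ± 0.083 and −0.27 without the pair of set 4. After 24 h it was 0.22, the opposite sign, and with U46619 after 48 h in other cultures 1.24 (edgeR FDR = 1.2e-04).

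Cited2 encodes a co-regulator that binds CBP and p300. In sets 1, 2, 4, 5 and 6 Cited2 was at 103, 104, 116, 64.1 and 83.0 FPM in the control and at 92.0, 101, 71.2, 57.8 and 71.9 FPM with AngII. With EGF it was at 94.5, 112, 83.5, 58.5 and 81.8 FPM and with EGF+AngII at 91.4, 95.05, 78.8, 52.7 and 79.4 FPM. Each AngII culture was below its partner and the groups overlapped. The log2-fold change of Cited2 was −0.18 ± 0.068 and −0.12 without the pair of set 4, which held a difference of −0.70. Hexdc, a hexosaminidase, had −0.24 ± 0.082, with 6.01 to 30.5 FPM with and 7.97 to 36.1 FPM without AngII, and −0.18 without that pair.

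Wnt4, a secreted Wnt ligand, had the lowest p of the 24 genes. In sets 1, 2, 4, 5 and 6 Wnt4 was at 3.49, 2.35, 2.12, 1.72 and 10.5 FPM in the control and at 2.74, 1.83, 1.2, 1.4 and 11.2 FPM with AngII. With EGF it was at 3.25, 2.38, 1.55, 2.35 and 18.8 FPM and with EGF+AngII at 2.9, 2.07, 0.978, 1.34 and 10.7 FPM. Its level was at most 3.49 FPM outside set 6, and the control pair of set 6 was the exception in direction. The mean of Wnt4 reached 5 FPM only in the EGF group (5.67 FPM), through the EGF culture of set 6. It thus entered the selection through a group without AngII, which favours a lower value with AngII. The log2-fold change of Wnt4 was −0.43 ± 0.12, −0.38 without the pair of set 4 and −0.16 after 24 h. Rgs4, which accelerates the GTPase of Gq and Gi, was lower in 9 of 10 pairs (−0.28 ± 0.13), with the lowest differences in the AngII-control pairs of sets 2 and 4 (−1.17 and −0.76). Shq1, Mrgpre, Trmt10b, Pigk, Gm49980 and the RIKEN transcripts X2810047C21Rik1 and X4921524J17Rik, written as in the deposited table, made up the rest, with log2-fold changes of −0.45 to −0.09.

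**Figure D4:**
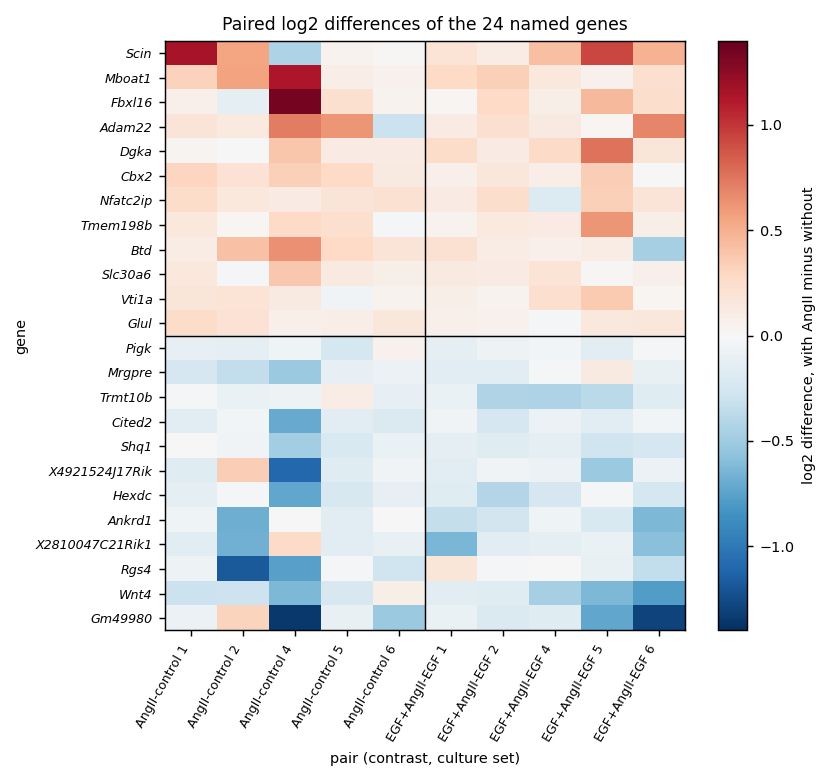
Log2 difference in FPM (plus 0.5) between the library with AngII and its partner without, for the 12 higher and 12 lower named genes (rows) in the 10 pairs (columns), coloured from blue (lower with AngII) to red (higher). The AngII-control pair of set 4 holds strong colours for several genes (1.13 for Mboat1, −0.73 for Hexdc), while most other values are pale.

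Lists of genes of the pathways around AT1R were counted, without a set test. Over 32 pathway lists 750 of 833 genes were tested. Of these, 3 were higher and 4 lower at an unadjusted p under 0.05 (0.933% against 0.987% of all genes). In 26 lists no member had such a p, and the list medians ranged from −0.03 to 0.11, and from −0.13 to 0.10 without the pair of set 4. Of the 669 pathway genes with at least 5 FPM, the interval was inside 2-fold for 655 and inside 1.5-fold for 575.

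In the list of G protein signaling and desensitisation of AT1R, 1 of 29 members was higher and 0 lower (median 0.03). The member was Arrb1, β-arrestin 1, which ends G protein coupling and takes receptors into endosomes (0.19 ± 0.074). Arrb1 was at 39.5 to 83.8 FPM with and 25.6 to 74.5 FPM without AngII and was higher in 8 of 10 pairs. Gna11, an α-subunit of the Gq family, had 0.07 ± 0.087 and Gna13 0.11 ± 0.070. Rock2, the kinase downstream of RhoA, had 0.15 ± 0.15, and 0.05 without the pair of set 4. Of 10 tested genes of the calcineurin-NFAT list 0 had an unadjusted p under 0.05 (median −0.02), with Nfatc1 at 0.08 ± 0.077.

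Of 12 tested EGFR ligands, receptors and sheddases 0 were higher and 1 was lower (median 0.07), the receptor gene Erbb4, which did not exceed a group mean of 0.392 FPM and had no unadjusted p under 0.05 without the pair of set 4. In that fit 1 of the 12 was higher and 0 lower at such a p, against 1.08% and 1.02% of all genes. The EGFR ligands Areg (0.53 ± 0.27) and Ereg (0.17 ± 0.091) were higher in 8 and 7 of 10 pairs, and Areg was at most 0.451 FPM outside set 6. Hbegf, the ligand linked to transactivation by AT1R, had −0.02 ± 0.18, and 0.16 without the pair of set 4. Of 22 ERK and EGFR feedback genes and 26 immediate-early genes 0 had such a p (medians 0.08 and 0.03), with Dusp6 at 0.08 ± 0.11, Fosl1 at 0.29 ± 0.17 and Egr2 at 0.28 ± 0.20. These 3 genes were, without the pair of set 4, at 0.13, 0.14 and 0.10. In that fit 1 of 22 feedback genes was higher and 1 lower at an unadjusted p under 0.05. Of all genes 1.08% were higher and 1.02% lower.

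For contraction and its regulators, 0 of 25 contractile genes had an unadjusted p under 0.05 (median 0.02). Acta2 had −0.02 ± 0.11 and Myh11 0.11 ± 0.14, while 3 members, among them Tagln and Cnn1, are listed at 0. Of 17 YAP-TEAD targets 1 was lower, Ankrd1, and the matricellular targets Ccn1 (−0.15 ± 0.13) and Ccn2 (0.02 ± 0.099) did not pass. Without the pair of set 4, 3 of the 17 YAP-TEAD targets and 2 of the 25 contractile genes were lower at an unadjusted p under 0.05 and 0 of either higher, against 1.02% of all genes for lower. In that fit Acta2 had −0.10, Myh11 0.04, Ccn1 −0.02 and Ccn2 −0.04, and the contractile median was −0.03. Of 22 collagen genes and 39 other matrix and elastic fibre genes 0 had an unadjusted p under 0.05 (medians 0.07 and 0.09), with Col1a1 at 0.08 ± 0.17, Col6a2 at 0.25 ± 0.12 and Fn1, fibronectin, at −0.07 ± 0.15. These genes had, without the pair of set 4, −0.04, 0.15 and 0.03, the medians were 0.03 for collagens and 0.00 for the other matrix genes, and 1 of the latter was lower at an unadjusted p under 0.05.

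Among 28 growth factor genes 1 was lower, Pdgfa, the A chain of platelet-derived growth factor (−0.23 ± 0.099). Pdgfa was at 26.3 to 91.6 FPM with and 31.0 to 111 FPM without AngII and lower in 8 of 10 pairs, and its log2-fold change was −0.14 without the pair of set 4, where its unadjusted p was not under 0.05. Among 28 inflammation genes 1 was higher, Cxcl12, a chemokine of stromal cells (0.17 ± 0.076), which was at 2254 to 5172 FPM with and 2053 to 4831 FPM without AngII and had 0.13 without that pair, with no unadjusted p under 0.05. Without it the inflammation list had 0 of 28 members higher and 3 lower, against 1.08% and 1.02% of all genes. Its median went from 0.06 to −0.03. Wnt2 was the only higher member of 31 Notch and Wnt genes (0.72 ± 0.28, 8 of 10 pairs, 0.47 without the pair of set 4), next to the lower Wnt4. In the lists of DNA replication (33 tested), mitosis (29), glycolysis and hypoxia (27), cholesterol and fatty acid synthesis (29), ER chaperones (26) and oxidative stress (19) 0 had such a p. When the pair of set 4 was left out, 1 of 26 ER chaperone genes was higher and 1 of 19 oxidative stress genes lower. Over all genes these shares were 1.08% and 1.02%. The median of the oxidative stress list was then −0.13. Nox4, an oxidase of vascular cells, had 0.28 ± 0.22, and 0.07 without the pair of set 4.

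The comparison was then made separately for the background without and with EGF. AngII against control gave 0 DEG, 0 genes by either tool alone, and 1.17% of the genes higher and 1.66% lower at an unadjusted p under 0.05 in edgeR (436 genes in all, and 419 in DESeq2). EGF+AngII against EGF gave 0 DEG, 0 genes by either tool alone, and 507 higher (3.29%) and 513 lower genes (3.33%) at that p (922 in DESeq2). The interaction, which is the difference between the effects of AngII with and without EGF, gave 0 DEG and 0 genes by either tool alone, with 777 higher (5.04%) and 859 lower genes (5.58%) in edgeR and 1624 in DESeq2. The lowest FDR of the interaction was 0.464 in edgeR and 0.282 in DESeq2.

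The mean differences of the 5 pairs without EGF and of the 5 pairs with EGF, which share no library, had a correlation of −0.446 across genes and the same sign in 27.7% of 10558 genes. Without the pair of set 4 these values were −0.413 and 31.2%. The genes are not independent replicates, and the correlation is a description.

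The genes with opposite signs included those of the translation machinery and of mitochondrial respiration. Of 23 ribosomal protein genes tested, which encode the protein part of the ribosome, 20 had an interaction lower at an unadjusted p under 0.05 and 0 higher, against 5.58% of all genes for lower. Their median log2-fold change was 0.18 for AngII against control, −0.26 for EGF+AngII against EGF and −0.04 for the main effect. Of 29 genes of oxidative phosphorylation 12 had a lower interaction and 0 a higher one, with medians of 0.14 and −0.19. None of these genes had an FDR under 0.05, the lowest being 0.464.

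The summed FPM of the ribosomal protein genes in sets 1, 2, 4, 5 and 6 was 16350, 20880, 21310, 18780 and 22990 in the control and 18920, 24350, 25850, 17180 and 28040 with AngII. It was 16800, 22290, 25410, 26180 and 37310 with EGF and 18670, 18620, 21920, 18860 and 25400 with EGF+AngII. AngII was higher than control in 4 of 5 sets, with set 5 as the exception, and EGF+AngII was lower than EGF in 4 of 5 sets, with set 1 as the exception. The EGF cultures of sets 5 and 6 stand above the other cultures of their sets. The ranges of the 4 incubations overlapped.

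Nuclear-retained transcripts went the other way. The median of the 5 transcripts was −0.40 without and 0.20 with EGF. Against 5.04% of all genes, 1 of 5 had a higher interaction at an unadjusted p under 0.05. That was Malat1, a nuclear long non-coding RNA, which in sets 1, 2, 4, 5 and 6 was at 346, 207, 262, 445 and 429 FPM in the control and at 188.7, 132, 138, 364 and 349.6 FPM with AngII. With EGF it was at 227, 192, 170.3, 379.7 and 222 FPM and with EGF+AngII at 173.8, 215, 228, 449.8 and 584 FPM. AngII was below the control in 5 of 5 sets and EGF+AngII above EGF in 4 of 5. The log2-fold changes of Malat1 were −0.61 and 0.36 (edgeR FDR of the interaction 0.464). These transcripts and the ribosomal proteins had been listed as signs of RNA quality, and their part in the other differences between the backgrounds was not tested.

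The interaction of these lists depended on single sets. Without replicate 6 the lower interaction remained at an unadjusted p under 0.05 in 4 of 23 ribosomal protein and 2 of 29 oxidative phosphorylation genes (1.66% of all genes), and without replicate 2 in 10 of 23 and 4 of 29 (2.52%). Without replicate 4 these were 16 of 23 and 3 of 29 (3.47%). Without the replicate block they were 1 of 23 and 0 of 29 (0.883%). Without the AngII-control pair of set 4 it was 22 of 23 and 5 of 29 (4.81%). In that fit the medians for AngII against control were 0.15 for ribosomal proteins and 0.09 for oxidative phosphorylation. The signs of the medians without and with EGF were unchanged in each of these settings. The median of the nuclear-retained transcripts with EGF was 0.01 without replicate 6, and in sets 1, 2, 4, 5 and 6 it was −0.15, 0.07, 0.23, −0.16 and 0.95. Their median interaction went from 0.44 to 0.18 without replicate 6. Without the AngII-control pair of set 4 it was 0.74, with 3 of 5 higher at an unadjusted p under 0.05. Their median for AngII against control was then −0.53.

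Single genes of the backgrounds were named by the lowest p. Dlk1, a non-canonical Notch ligand of progenitor cells, was higher with AngII than in the control in 5 of 5 sets (log2-fold change 0.95), with values of 1.12 to 72.5 FPM in the control and 2.11 to 94.2 FPM with AngII, and had −0.02 with EGF (edgeR FDR of the interaction 0.464). The pair of set 4 held a difference of 1.98. Of the others, Rpl23a.ps3, Rpsa.ps4, Gm10108, Gm3362 and Gm7206 are annotated as processed pseudogenes. The authors counted reads with several alignments, so the counts of such copies are uncertain. Among the members of the lists, Fn1 had −0.43 without and 0.29 with EGF. Its AngII-control differences were −0.88 in set 2 and −0.96 in set 4, and −0.04, −0.12 and −0.15 in sets 1, 5 and 6. Mgp, an inhibitor of calcification, had 0.94 without and −0.21 with EGF, with a difference of 2.7 in the AngII-control pair of set 4.

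**Figure D5:**
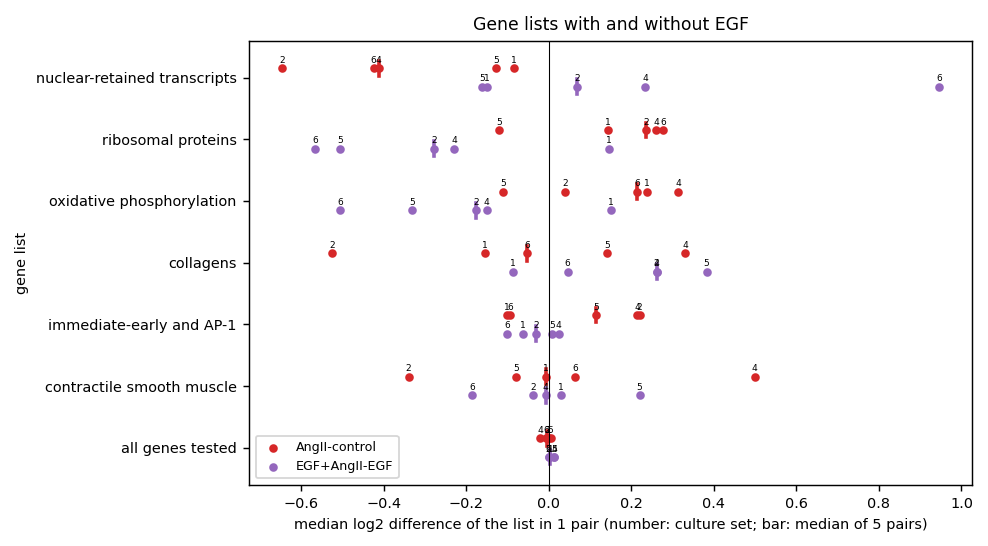
Median log2 difference of the members of 7 gene lists (rows) in each of the 5 AngII-control pairs (red) and 5 EGF+AngII-EGF pairs (purple), with the culture set as a number at each point and a bar for the median of 5 pairs. Ribosomal proteins and oxidative phosphorylation lie right of 0 in 4 of 5 pairs without EGF and left of 0 in 4 of 5 pairs with EGF. Nuclear-retained transcripts lie left of 0 in all 5 pairs without EGF (−0.65 to −0.08) and on both sides of 0 with EGF. Collagens lie right of 0 with EGF in every set but set 1 (−0.09 to 0.38) and on both sides of 0 without EGF. The other lists spread around 0.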

How the data were processed

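RNA of 20 cultures was measured by RNA-seq of poly(A) RNA. The authors aligned reads with HISAT2 2.1.0 to mm10 and counted them per gene with featureCounts, reads with several alignments included, and the deposited values are raw counts. These were used as deposited, with groups and replicate numbers from the labels. edgeR 4.0.16 (TMM, quasi-likelihood test) and DESeq2 1.42.0 (Wald test) in R 4.3.3 were fitted across all genes left after the expression filter of edgeR, with the pair (culture set within EGF background) as a block, and p-values were adjusted by Benjamini-Hochberg. The log2-fold changes are given with SE and 95% interval from edgeR, and pair differences as log2 of FPM plus 0.5. A DEG needed an FDR under 0.05 in both tools and 5 FPM or more as the mean of 1 group. The pairing follows the shared replicate numbers, for which 27 of 30 correlations within a set exceeded 0.1, and all 27 without the control of set 4. The libraries hold 20338025 to 33916114 counts, and a count of 3 is given as the floor, which covers counting error only.

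Genes were named by rule. These were, in each direction, the 12 genes with the lowest p at 5 FPM or more and the same direction in at least 9 of 10 pairs (DEG first, of which there were 0), the receptor and renin-angiotensin genes, up to 3 members of each list with the lowest p plus the 2 with the highest mean, and the 3 genes with the lowest p per direction for each background and the interaction. The members and lists were chosen with earlier results of these data known. Positions are those of GENCODE on GRCm38. Alternatives were other normalisations and filters, DESeq2 or edgeR alone, limma 3.58.1, other blocks and leaving out sets or pairs. The scripts were tested on simulated data.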

Additional observations from a re-analysis of the deposited data

Results flagged for a closer look

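In 16 of 90 groups of 5 values (17.8%), 1 value lay apart from the others by Dixon's criterion. The groups are of genes chosen from these data and of markers, and they share libraries. This share therefore cannot be compared with the 5% of unselected, independent groups. Most belong to culture sets 4 and 6.

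For the difference between AngII and control (log2), the pair of set 4 lay apart for Tbxa2r (2.38), Fkbp5 (3.06), Dlk1 (1.98), Pdgfa (−1.07), Hexdc (−0.73) and Cited2 (−0.70), and that of set 2 for Ankrd1 (−0.68). Fkbp5, a glucocorticoid-induced chaperone, was higher in 10 of 10 pairs, with a log2-fold change of 0.37 and of 0.13 without the pair of set 4. For the difference between EGF+AngII and EGF, set 5 lay apart for Dgka (0.76) and set 6 for Tbxa2r (−0.68).

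The summed mesothelial markers of set 6 lay apart in each incubation, with 436 FPM in the control, 681 FPM with EGF, 550 FPM with AngII and 432 FPM with EGF+AngII. The summed adventitial fibroblast markers of set 4 lay apart with EGF (3191 FPM), AngII (3326 FPM) and EGF+AngII (2714 FPM), but not in the control (781 FPM). Cd34 of this list went the other way in set 4, with 483.5 FPM in the control and 56.5 to 65.4 FPM in the other cultures.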

How the results depend on the processing

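The number of DEG was 0 in all 20 alternatives for the main effect of AngII and in all 12 for each of AngII against control, EGF+AngII against EGF and the interaction. The genes with an unadjusted p under 0.05 numbered 33 to 485 for the main effect. With no replicate block the count of DEG was 0, and 33 genes had such a p, fewer than with the pairing. Leaving out 1 culture set gave 118 to 329 such genes with 0 DEG, and leaving out the AngII-control pairs of sets 2 and 4, which was chosen after seeing the data, gave 485 with 0 DEG. The 24 genes named for the main effect had the same direction in every alternative run on them. They were selected for a shared direction in these same pairs, so this is not evidence of a stable effect. The number of culture sets and the control of set 4 limit the precision. Genes with a mean under 5 FPM could not be DEG.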
